A study of Rattus norvegicus with 18 samples.

Results

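The liver transcriptome of obese rats fed plantain at the low dose was compared with that of obese control rats fed with water, with 3 RNA sequencing libraries in each group out of 18 in the series. The genes described are those with at least 1 FPKM (fragments per kilobase of gene, scaled by a size set for each library) in at least 3 of the 18 libraries. They came to 11945 of the 33657 genes in the table, and 10655 of them were protein coding. All rats were male and, per the labels, 18 weeks old. The low-dose and obese control groups both carry the disease state obesity, as do the groups fed the medium and high doses of plantain and the group fed orlistat, a lipase inhibitor that served as the positive control. The normal control, labelled as healthy, was also fed with water. The labels used here give no strain, no diet, no amount or length of dosing, and no statement of which plant or preparation was fed. Nothing in them ties the 3 libraries of a group to different rats. The p-values therefore rest on differences among these libraries alone, and those differences may be technical.

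The hepatocyte secretes most of the proteins of blood plasma, and these fold in the endoplasmic reticulum (ER) with the help of chaperones that the unfolded protein response raises when unfolded protein builds up. The same cell makes cholesterol, turns it into bile acids, builds fat from sugar and burns fatty acids in mitochondria and peroxisomes. Many of these genes follow a daily cycle set by the circadian clock, and the hepatocytes share the tissue with sinusoidal endothelial cells, Kupffer cells (the resident macrophages) and the stellate cells that lay down matrix.

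The libraries matched their label as liver. All 21 hepatocyte genes of the marker list passed the filter, and their summed level was 102627 to 104805 FPKM in the obese control and 94606 to 99449 FPKM at the low dose. Of these genes 7 rose and 5 fell (median log2 difference 0.02). Albumin took between 11.5% and 12.5% of the reads in each of the 6 libraries. The reads behind the FPKM values could be recovered and came to between 19.2 and 24.3 M (mega) reads per library in the obese control and between 19.6 and 23.9 M at the low dose. Mitochondrially encoded transcripts took 8.11% ± 0.26 of the reads in the obese control and 6.92% ± 0.33 at the low dose (mean ± SD, n = 3), and the groups did not overlap. Libraries of 1 group differed by more than counting noise (chi-square per degree of freedom 3.41 to 4.78 between pairs), so none was treated as a second deposit of another; this does not show that they came from different rats.

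Between the low dose and the obese control, 3947 of 11945 genes passed an adjusted p of 0.05 in limma (33.0%). At the low dose 2183 genes were higher (18.3%) and 1764 were lower (14.8%). When every library was rescaled to the same total (transcript shares, TPM), the calls were 2643 higher and 1306 lower, so that the share of higher genes among the calls went from 55.3% to 66.9%, and the median log2 difference of all genes went from 0.01 to 0.04. The changes were mostly small. The median log2 difference was 0.26 among the higher genes and -0.27 among the lower genes, 584 called genes differed by more than 0.5, and 27 higher and 58 lower genes differed by more than 1. The log2 difference is throughout the level as log2(FPKM + 1) at the low dose minus that in the obese control, given with its standard error (SE) from limma and n = 3 per group. Its median SE over all genes was 0.07. For 5349 genes (44.8%) the 3 values of one group all lay on one side of the 3 values of the other. The shares of 18.3% higher and 14.8% lower genes are the background for the counts in each list of genes.

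Genes were grouped into 39 lists by pathway or cell type, of which 801 members were tested and 124 of the 925 in the table were below the filter. Among lists of at least 10 tested members, those with the highest shares of higher genes were markers of liver endothelial cells (17 of 22) and of Kupffer cells and macrophages (12 of 16), immediate early genes (14 of 21), cholesterol synthesis and uptake (18 of 28) and the circadian clock (14 of 22). Those with the highest shares of lower genes were ER chaperones and the unfolded protein response (25 of 35), mitochondrially encoded transcripts (8 of 13), and stellate cells and matrix (21 of 37). These 8 lists kept the sign of their median under each of the 14 alternative settings.

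**Figure D1:**
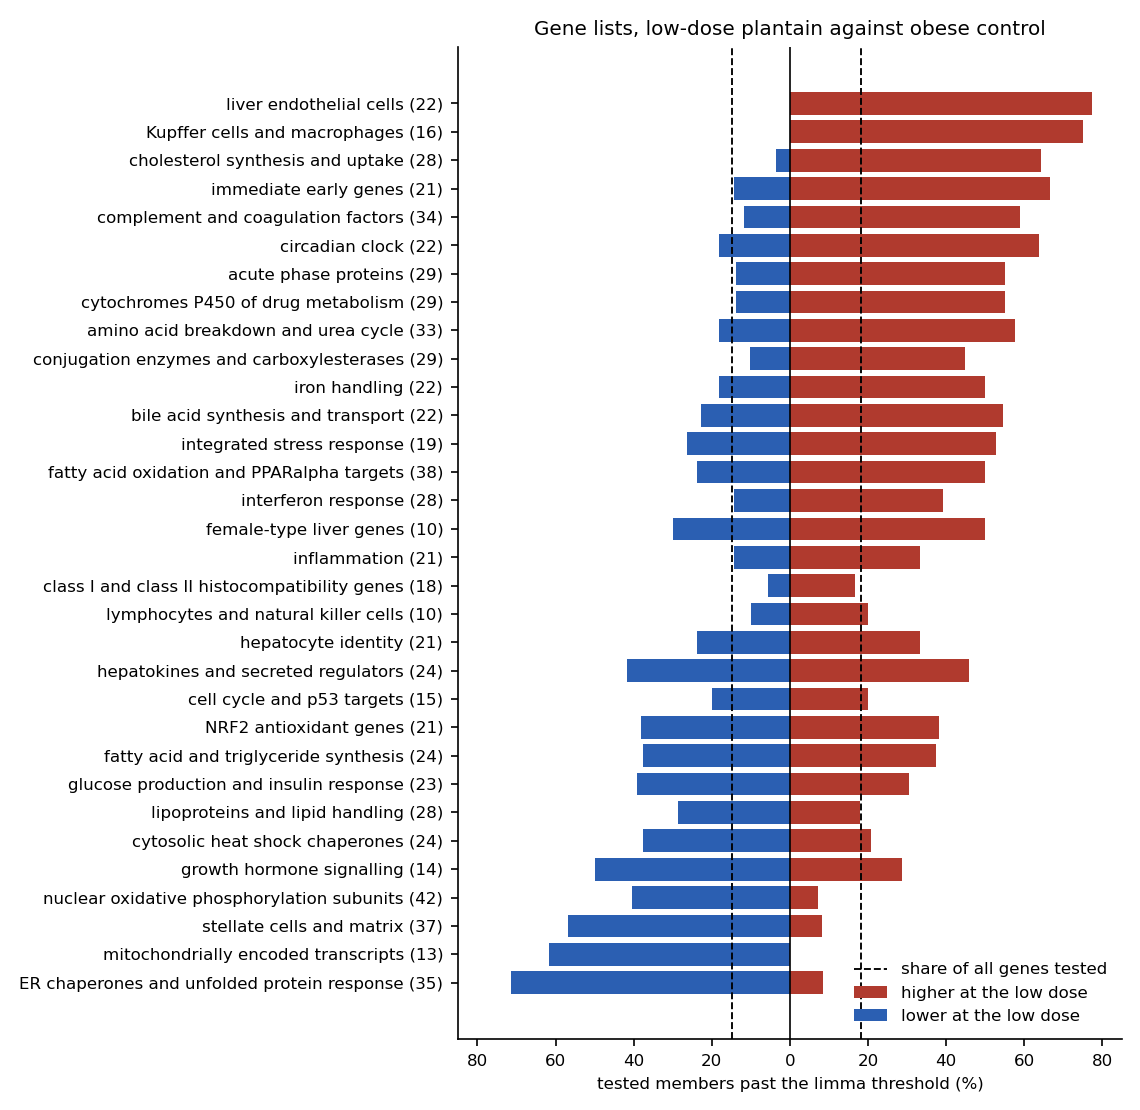
Share of tested members of each gene list (number tested in parentheses) that were higher (red, to the right) or lower (blue, to the left) at the low dose than in the obese control, in percent. Dashed lines stand at 18.3% and 14.8%, the shares of all 11945 genes; endothelial markers reach the farthest right and ER chaperones the farthest left.

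Genes of protein folding in the ER were lower at the low dose. Of 35 tested members of the list, 25 fell, 3 rose and 7 did not pass the threshold, with a median log2 difference of -0.28 beside 0.01 for all genes. By role, 10 of 11 chaperones and their cofactors fell with none higher (median -0.43), as did 7 of 8 disulphide and proline isomerases, 6 of 11 genes of export and degradation and 2 of 5 sensors and factors. Part of the finding can be set beside the start of these genes. The ER stress element, the letters CCAAT, then any 9 bases, then CCACG on either strand, is the textbook binding site through which the unfolded protein response acts. It was searched from 250 bases before to 50 bases after the start in RefSeq's windows of the rat build GRCr8, and it is in capitals in the windows below, which were chosen because they hold it: 4 genes that fell and, as a member that rose, Xbp1 (chosen after its values were seen). Hyou1 and Pdia4, which also fell, have RefSeq windows in which these letters were not found.
Hspa5, chr3:38452766-38453065, plus strand: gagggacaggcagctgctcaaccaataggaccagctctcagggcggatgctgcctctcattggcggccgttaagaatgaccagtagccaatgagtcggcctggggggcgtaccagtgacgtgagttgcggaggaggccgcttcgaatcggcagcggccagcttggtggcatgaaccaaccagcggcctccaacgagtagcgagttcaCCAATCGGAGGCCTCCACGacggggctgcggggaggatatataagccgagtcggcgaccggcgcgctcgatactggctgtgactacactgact
Hsp90b1, chr7:23012244-23012543, minus strand: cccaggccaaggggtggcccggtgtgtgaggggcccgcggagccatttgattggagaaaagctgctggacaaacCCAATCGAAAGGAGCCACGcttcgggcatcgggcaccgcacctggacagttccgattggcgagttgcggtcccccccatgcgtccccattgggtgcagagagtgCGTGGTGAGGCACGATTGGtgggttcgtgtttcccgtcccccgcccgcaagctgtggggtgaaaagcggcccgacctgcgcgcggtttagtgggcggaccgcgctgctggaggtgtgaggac
Calr, chr19:40213117-40213416, plus strand: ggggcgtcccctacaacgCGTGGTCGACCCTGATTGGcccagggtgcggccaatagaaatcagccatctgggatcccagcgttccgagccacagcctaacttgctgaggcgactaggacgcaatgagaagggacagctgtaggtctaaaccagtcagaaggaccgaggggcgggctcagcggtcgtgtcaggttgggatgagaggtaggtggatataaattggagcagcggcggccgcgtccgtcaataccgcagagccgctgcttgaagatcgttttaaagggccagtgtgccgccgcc
Creld2, chr7:121789134-121789433, plus strand: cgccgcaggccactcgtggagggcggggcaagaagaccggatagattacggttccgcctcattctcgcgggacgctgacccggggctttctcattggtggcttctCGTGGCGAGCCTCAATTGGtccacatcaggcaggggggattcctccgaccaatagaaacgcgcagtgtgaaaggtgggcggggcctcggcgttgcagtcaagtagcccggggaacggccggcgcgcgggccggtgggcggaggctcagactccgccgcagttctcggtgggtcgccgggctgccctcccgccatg
Xbp1, chr14:84604373-84604672, plus strand: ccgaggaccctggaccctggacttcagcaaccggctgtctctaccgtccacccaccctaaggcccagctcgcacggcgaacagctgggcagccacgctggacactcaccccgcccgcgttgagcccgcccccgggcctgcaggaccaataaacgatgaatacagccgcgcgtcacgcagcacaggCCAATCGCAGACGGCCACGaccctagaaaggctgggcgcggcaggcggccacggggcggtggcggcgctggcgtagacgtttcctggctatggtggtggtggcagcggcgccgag

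The element lay 43 to 25 bases before the start of Hspa5, 65 to 47 bases before that of Xbp1, 145 to 127 bases before that of Creld2 and 232 to 214 bases before that of Calr. Hsp90b1 holds it at 176 to 158 bases before its start and again, on the other strand, at 72 to 54 bases. Of the 35 list members, 27 matched a window and 9 of these held the element (33.3%). They were 6 of 20 lower genes, 1 of 3 higher genes and 2 of 4 that did not pass the threshold. Over all RefSeq windows the element was in 22 of 33469 (0.0657%). Among tested genes with a window it was in 7 of 1248 lower (0.561%), 2 of 1586 higher (0.126%) and 6 of 5238 other genes (0.115%). These counts include the 9 list members, which were 6 of the 7 lower, 1 of the 2 higher and 2 of the 6 other genes. They are therefore no comparison apart from the list. A match is a description of the letters and no evidence that a factor binds there.

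Hspa5 (BiP), the main ER chaperone of the Hsp70 family, was at 389.6, 390.3 and 389 FPKM in the obese control libraries and at 209, 213 and 210.2 FPKM at the low dose. All low-dose libraries were below all obese control libraries. The log2 difference was -0.88 ± 0.015 (adjusted p = 5.37e-15, limma), the smallest p of any lower gene. The gene averaged 188 ± 3.34 FPKM at the medium dose, 186 ± 1.44 FPKM at the high dose, 221 ± 0.651 FPKM with orlistat and 224 ± 1.1 FPKM in the normal control (mean ± SD, n = 3), so the mean of the obese control was the highest of the 6 groups. Against the medium and high doses the low-dose level was higher, by 0.17 ± 0.015 and 0.18 ± 0.015 on the log2 scale (adjusted p = 6.49e-07 and 1.95e-07, limma).

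Creld2, an ER protein with isomerase activity, was at 52.7, 51.4 and 52.7 FPKM in the obese control and at 16.7, 20.5 and 17.6 FPKM at the low dose. It had the largest fall of the list, -1.47 ± 0.077 on the log2 scale. Hyou1, a large relative of Hspa5 that exchanges its nucleotide, went from 66.8, 64.9 and 63.4 FPKM to 28.5, 28.4 and 28.3 FPKM, a log2 difference of -1.17 ± 0.039. In both genes the lowest obese control library was more than 2 times the highest low-dose library. Manf, a secreted ER stress protein, stood at 189, 177 and 187 FPKM in the obese control and at 104, 98.3 and 107 FPKM at the low dose (log2 difference -0.83 ± 0.035). Syvn1, the ubiquitin ligase of ER-associated degradation, stood at 19.1, 19.2 and 19.4 FPKM against 11.9, 11.9 and 12.2 FPKM (log2 difference -0.64 ± 0.035). None of these groups overlapped.

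Other abundant members moved less. Calr (calreticulin), a lectin chaperone, went from 530.1, 533 and 544 FPKM to 419, 414 and 421 FPKM, a log2 difference of -0.36 ± 0.017. Hsp90b1 (GRP94), the ER member of the Hsp90 family, went from 256, 253 and 252 FPKM to 193, 195 and 193 FPKM, a log2 difference of -0.39 ± 0.02. Pdia4, a disulphide isomerase, went from 171, 166 and 166 FPKM to 122, 121 and 121 FPKM (-0.46 ± 0.02). The groups of all 3 genes were apart, and each averaged less at the medium and high doses than at the low dose: Calr 396 and 371 FPKM, Hsp90b1 178 and 165 FPKM, and Pdia4 102 and 97.7 FPKM. Not all of the list went this way. The 3 members that rose, named after their values were seen, were Xbp1, a transcription factor of the unfolded protein response (log2 difference 0.28 ± 0.029), Herpud1 (0.24 ± 0.023) and Edem1 (0.19 ± 0.023), both of ER-associated degradation. The sensors Atf6 and Eif2ak3 (PERK), also chosen after their values were seen, had differences of 0.03 ± 0.042 and -0.04 ± 0.08 that did not pass the threshold (adjusted p = 0.642 and 0.73, limma).

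**Figure D2:**
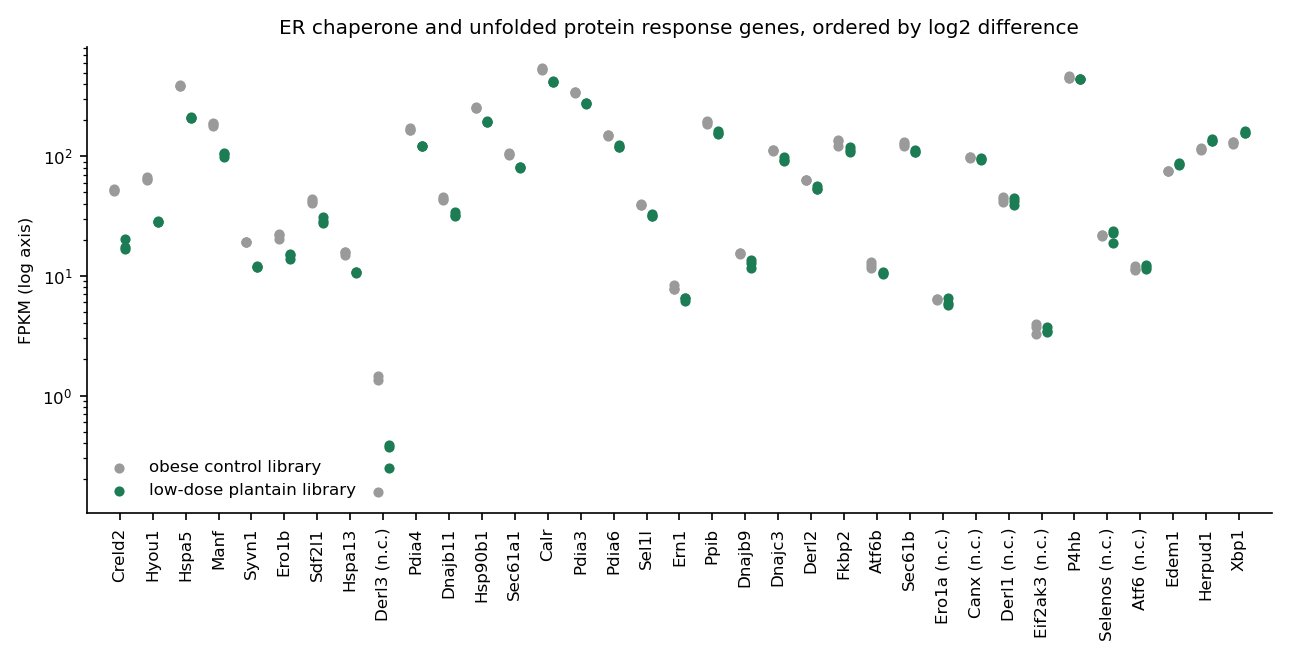
FPKM (log axis) of the 35 ER chaperone and unfolded protein response genes in the 3 obese control libraries (grey) and the 3 low-dose libraries (green), ordered by log2 difference. Members that did not pass the threshold carry "(n.c.)"; Creld2, with the largest fall, is at the left and Xbp1, with the largest rise, is at the right.

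The integrated stress response, in which phosphorylation of a translation factor favours Atf4 and its targets when amino acids or folding capacity run short, was divided. Of 19 tested members 10 rose and 5 fell (median log2 difference 0.15). Atf5, a transcription factor of this response with a high level in liver, fell from 550.2, 552 and 542 FPKM to 358, 357 and 356 FPKM (log2 difference -0.62 ± 0.02). Atf4 itself went from 43, 43.3 and 42.8 FPKM to 48.5, 46.5 and 48.5 FPKM (0.15 ± 0.036, adjusted p = 0.00538, limma), and its groups did not overlap. Of 13 targets on the list 7 rose and 3 fell. Trib3, a pseudokinase, went from 1.47, 2.11 and 2.3 FPKM to 3.05, 3.54 and 3.67 FPKM (0.59 ± 0.13), and Phgdh, the first enzyme of serine synthesis, from 1.84, 1.53 and 1.94 FPKM to 2.68, 3.27 and 3.36 FPKM (0.57 ± 0.10). Fgf21, a hormone that the fasting liver releases, was at 17.9, 18.3 and 20.9 FPKM in the obese control and at 28.3, 29.6 and 28.8 FPKM at the low dose (0.58 ± 0.11, adjusted p = 0.000509, limma). Its means in the other obese groups were lower than at the low dose: 14.5 FPKM at the medium dose, 9.56 FPKM at the high dose and 4.75 FPKM with orlistat.

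Cytosolic chaperones of the heat shock response had 9 lower and 5 higher genes of 24 (median log2 difference -0.06). Over the list the differences ran from -1.36 to 0.43, and the genes named here do not include the largest fall. Hsph1, which recycles Hsp70, fell from 36.6, 38.2 and 38.9 FPKM to 25.2, 25.9 and 24.4 FPKM (-0.57 ± 0.036). Hspa8, the constitutive Hsp70, fell from 224, 227 and 215 FPKM to 160.2, 161 and 182 FPKM (-0.40 ± 0.039), and Stip1, which bridges Hsp70 and Hsp90, from 39.3, 40 and 42.2 FPKM to 30, 30.1 and 28.8 FPKM (-0.44 ± 0.034). The mitochondrial chaperones Hspd1 and Hspa9 went the other way, by 0.29 ± 0.024 and 0.25 ± 0.025 on the log2 scale. Hspd1 was at 133, 135 and 134 FPKM against 164, 159.9 and 166 FPKM, without overlap.

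Genes of bile acid synthesis were higher, and several transporters on the same list, not all of which carry bile acids, were lower. Of 10 tested synthesis genes 7 rose and 1 fell, of 7 transporters 2 rose and 4 fell, and of 4 receptors 2 rose. The whole list had 12 higher and 5 lower genes of 22 (median 0.10; 14 higher and 3 lower as TPM). Cyp7a1, the rate-limiting enzyme that makes bile acids from cholesterol, was at 19, 19.1 and 18.8 FPKM in the obese control and at 48.3, 46 and 46.1 FPKM at the low dose. Every low-dose library was above every obese control library, with a fold of 2.47 between the mean levels and a log2 difference of 1.26 ± 0.032 (adjusted p = 2.7e-13, limma). The mean level was 41.9 FPKM at the medium dose, 44.3 FPKM at the high dose, 66.3 FPKM with orlistat and 33.6 FPKM in the normal control. The low dose was thus between the high dose and orlistat, and its difference from the high dose, 0.08 ± 0.032, did not pass the threshold (adjusted p = 0.0744, limma).

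Akr1d1, the reductase that acts on the sterol ring after Cyp7a1, went from 451, 448 and 443 FPKM to 743, 758 and 745 FPKM (0.74 ± 0.023). Cyp27a1, which oxidises the side chain, went from 126, 126 and 122 FPKM to 172, 170.1 and 170.4 FPKM (0.45 ± 0.019), and Slc27a5, which activates bile acids with coenzyme A, from 152, 149 and 153 FPKM to 210.3, 209 and 213 FPKM (0.47 ± 0.017). In each of these 3 the groups were apart. Cyp8b1, the enzyme that steers synthesis towards cholic acid and chosen after its values were seen, was the synthesis gene that fell (-0.10 ± 0.021). Among transporters, Abcc2, an export pump of the bile canaliculus, fell from 94.2, 95.3 and 96.3 FPKM to 62.5, 63.7 and 62.7 FPKM (-0.59 ± 0.022). Abcb4, which moves phospholipid into bile, fell from 13.4, 13.3 and 13.7 FPKM to 9.62, 10.1 and 10 FPKM (-0.41 ± 0.029), and Slco1b2, an uptake carrier of the blood side, from 229, 229 and 225 FPKM to 175, 175 and 178 FPKM (-0.37 ± 0.026). In none of these transporters did the groups overlap.

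Cholesterol synthesis and uptake rose with 1 exception among the called genes. Of 28 tested members 18 were higher, 1 was lower and 9 did not pass the threshold (median log2 difference 0.20). The higher genes were 6 of 9 mevalonate steps, 7 of 11 sterol steps, all 3 of uptake and 2 of 5 of control. Fdft1 (squalene synthase), the first step committed to sterols, went from 18.2, 17.8 and 18.3 FPKM to 28.3, 28.4 and 27.6 FPKM (0.61 ± 0.032). The obese control libraries were all below the low-dose libraries. The lower gene was Insig2, which holds the sterol sensor in the ER. It went from 210.0, 206 and 202 FPKM to 123, 124 and 125 FPKM (-0.73 ± 0.03), and its mean was 88.7 FPKM at the medium dose, 88.8 FPKM at the high dose and 52.2 FPKM in the normal control. Of the 28 tested members 20 matched a RefSeq window, and neither the sterol element nor the ER stress element was found in any of them. The sterol element was in 0.125% of all windows and in 0 of the 8072 windows of tested genes, so its absence says only that these letters are not there.

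Synthesis of fat was split between its steps. The list had 9 higher and 9 lower genes of 24 (median 0.04). Scd, the desaturase that makes oleic acid, fell from 243, 244 and 245 FPKM to 109, 107 and 111 FPKM. The low-dose values were all below the obese control, and the log2 difference was -1.15 ± 0.02 (adjusted p = 5.86e-15, limma). Its mean was 272 FPKM at the medium dose, 170.4 FPKM at the high dose, 83.5 FPKM with orlistat and 619 FPKM in the normal control, so that the low-dose level was below the obese control and both other doses (low minus medium dose -1.31 ± 0.02, low minus high dose -0.64 ± 0.02, adjusted p = 1.79e-15 and 6.23e-12, limma). Elovl5, an elongase of polyunsaturated fatty acids, fell from 187, 196 and 192 FPKM to 104, 103 and 104 FPKM (-0.88 ± 0.022). Gpam, the first acyltransferase of triglyceride assembly, fell from 33.1, 32.1 and 33.2 FPKM to 18.5, 16.6 and 19.1 FPKM (-0.83 ± 0.045). The 3 genes of sugar supply on the list all fell. Upward, Lpin2, a phosphatidate phosphatase, went from 8.51, 8.64 and 8.25 FPKM to 14.8, 14.9 and 14.9 FPKM (0.75 ± 0.028), and Acacb, the acetyl-CoA carboxylase at the mitochondrion, from 3.2, 3.36 and 3.5 FPKM to 5.61, 5.58 and 5.5 FPKM (0.59 ± 0.044). Fasn, fatty acid synthase, named after its values were seen, was at 5.49, 5.05 and 5.55 FPKM against 5.43, 6 and 5.73 FPKM and did not pass the threshold (0.08 ± 0.052, adjusted p = 0.279, limma).

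Fatty acid oxidation and the targets of the nuclear receptor PPARalpha had 19 higher and 9 lower genes of 38 (median 0.09). Peroxisomal and omega oxidation had 6 higher of 9 and none lower, the receptor and its partners 3 higher of 3, and ketogenesis 3 lower of 3. Ehhadh, the peroxisomal bifunctional enzyme, went from 108, 111 and 112 FPKM to 191, 183 and 185 FPKM (0.75 ± 0.02). Cpt1a, which admits fatty acids into mitochondria, went from 78.6, 77.2 and 79.1 FPKM to 119.9, 118 and 119 FPKM (0.60 ± 0.021). These groups were apart with the low dose above. The omega hydroxylases Cyp4a2 and Cyp4a3 were higher by 0.35 ± 0.028 and 0.47 ± 0.038 on the log2 scale. Cyp4a3 was at 416, 412 and 412 FPKM in the obese control and 580.5, 563 and 579 FPKM at the low dose, while its mean was 339 FPKM at the medium dose and 397 FPKM at the high dose. Crot, which prepares peroxisomal chains for the mitochondrion, was the largest fall of the list, from 137, 137 and 133 FPKM to 64.5, 61.8 and 66.5 FPKM (-1.07 ± 0.032). Plin2, the coat protein of lipid droplets, fell from 67.6, 71.3 and 71.6 FPKM to 53.5, 54.8 and 52.5 FPKM (-0.38 ± 0.036), and Bdh1, the last enzyme of ketone body synthesis, from 182, 177 and 179 FPKM to 147, 144 and 150.0 FPKM (-0.29 ± 0.02).

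**Figure D3:**
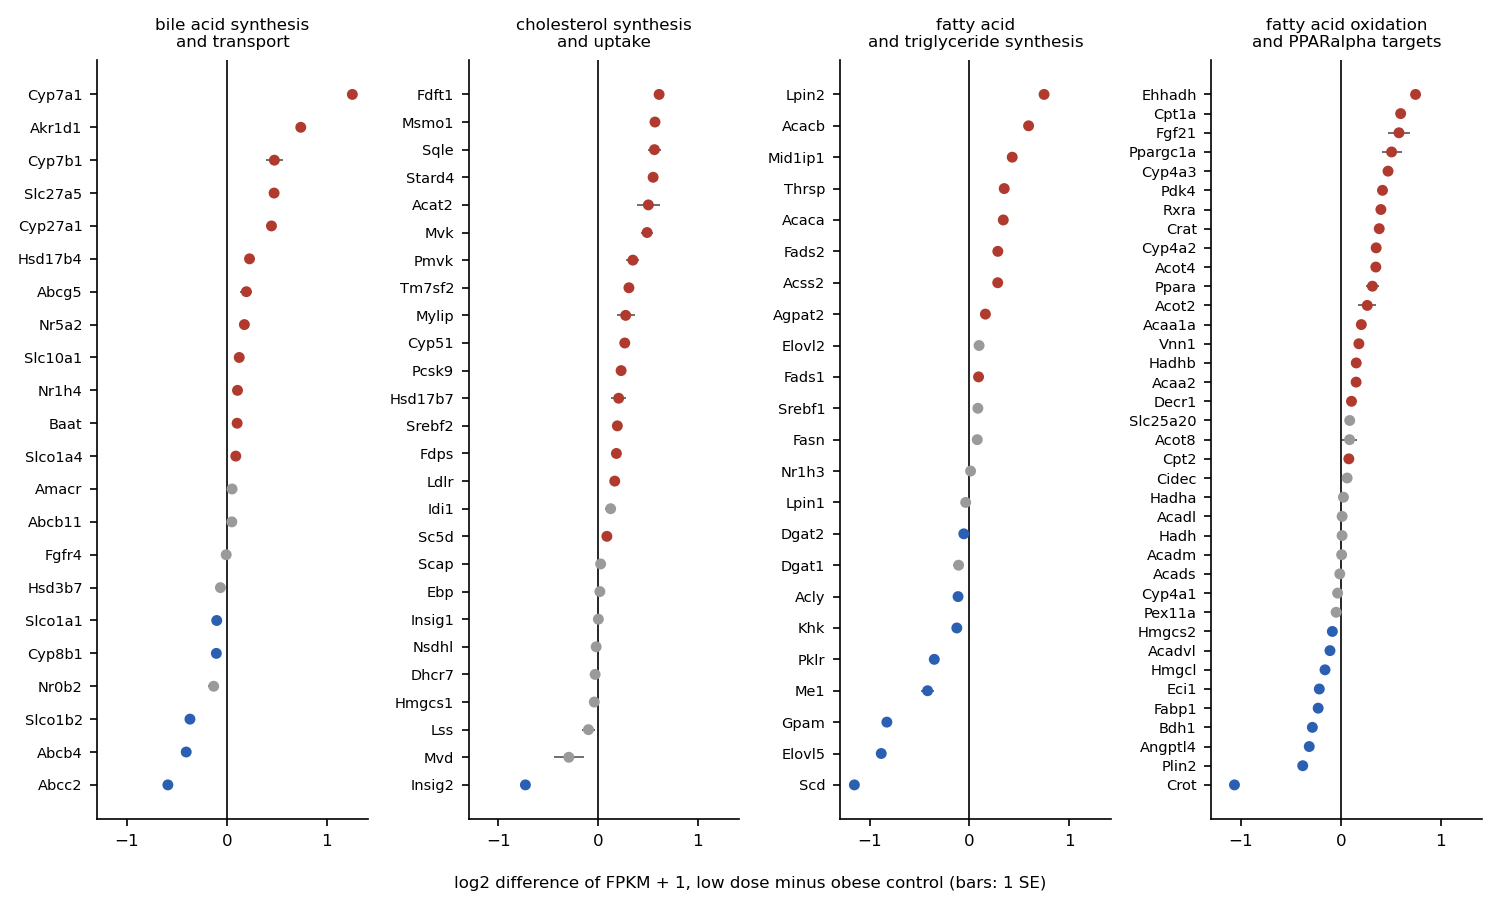
Log2 difference of FPKM + 1, low dose minus obese control, with bars of 1 SE, for tested genes of 4 lipid lists, without 4 genes that are not reported; red genes were higher, blue genes lower and grey genes not past the threshold. Cyp7a1 is farthest to the right in bile acid synthesis, cholesterol genes lie mostly right of 0 and Scd and Crot are farthest to the left in their lists.

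The apolipoproteins that passed the threshold fell. Of 11 on the list of lipoproteins and lipid handling, 5 fell and none rose. Apoa1, the main protein of high-density lipoprotein, went from 1905, 1893 and 1922 FPKM to 1545, 1563 and 1533 FPKM (-0.30 ± 0.02), and Apoa2 from 2552, 2565 and 2627 FPKM to 2062, 2072 and 2086 FPKM (-0.32 ± 0.019). Apoa4 and Apoc3, an inhibitor of lipoprotein clearance, had log2 differences of -0.31 ± 0.018 and -0.20 ± 0.018. The remaining members of the list, on assembly, uptake and droplets, had 5 higher and 3 lower genes of 17. Lpl, the lipase that clears circulating triglyceride, fell from 3.02, 3.24 and 3.09 FPKM to 1.66, 1.78 and 1.62 FPKM (-0.62 ± 0.065). Fabp4, a fatty acid carrier of fat cells and macrophages, was higher, at 2.97, 3.94 and 3.07 FPKM against 4.83, 5.61 and 5.12 FPKM (0.52 ± 0.10), and its groups did not overlap. Of 8 fat cell markers in the table, Adipoq, Plin1 and Lep were listed at 0 in all 6 libraries, and of 4 tested 3 rose and 1 fell. The 8 markers summed to 1078 to 1117 FPKM in the obese control and 859 to 873 FPKM at the low dose, most of it from Car3 (mean 1068 and 832 FPKM), a carbonic anhydrase that liver also expresses, and the part of fat cells in these values was not tested.

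Glucose production and insulin response had 7 higher and 9 lower genes of 23, with a median of -0.0033 that became 0.04 as TPM, where 7 were higher and 5 lower. The key enzymes of glucose production, Pck1 and G6pc, named after their values were seen, did not pass the threshold (adjusted p = 0.897 and 0.251, limma). Igfbp1, a binding protein of insulin-like growth factors that insulin represses, went from 33.7, 32.8 and 32.9 FPKM to 55.5, 57.2 and 56 FPKM (0.75 ± 0.041). Its level at the low dose was also above the medium dose at 17.7 FPKM and the high dose at 23 FPKM (low minus medium 1.62 ± 0.041, low minus high 1.25 ± 0.041). Slc2a2, the glucose transporter of the hepatocyte, went from 104, 105 and 109 FPKM to 166, 165 and 161 FPKM (0.62 ± 0.022). Foxo3, a transcription factor that insulin signalling keeps out of the nucleus, went from 3.59, 3.67 and 3.59 FPKM to 6.05, 5.95 and 7.09 FPKM (0.67 ± 0.055), and Insr, the insulin receptor, from 8.4, 8.97 and 9.11 FPKM to 10.7, 10.9 and 11.3 FPKM (0.29 ± 0.039). Pygl, the liver glycogen phosphorylase, was lower, at 88.3, 88.5 and 86.5 FPKM against 65.7, 66 and 67.3 FPKM (-0.40 ± 0.023).

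Growth hormone signalling had 7 lower and 4 higher genes of 14 (median -0.08). Socs2, a feedback inhibitor that growth hormone induces, fell from 25.5, 24.7 and 25.3 FPKM to 14.4, 14.6 and 12.8 FPKM (-0.81 ± 0.074). Igf1, the growth factor the liver makes under growth hormone, fell from 335, 333 and 341 FPKM to 258, 263 and 256 FPKM (-0.38 ± 0.018), and Cish from 9.91, 8.85 and 9.64 FPKM to 6.12, 6.62 and 6.63 FPKM (-0.49 ± 0.052). All 3 were lower in every low-dose library. Bcl6, a repressor that growth hormone holds down, also fell, from 10.5, 10.6 and 10.5 FPKM to 4.96, 4.84 and 5.35 FPKM (-0.93 ± 0.048), and its mean was 2.7 FPKM at the high dose and 13 FPKM with orlistat. Genes whose levels differ between male and female rat liver did not move as 1 group: 3 of 7 male-type genes were higher and 2 lower, and 5 of 10 female-type genes were higher and 3 lower. The log2 differences ran from -1.41 to 0.35 among male-type genes and from -1.13 to 1.28 among female-type genes. Cyp2c12, a steroid hydroxylase of female liver, went from 23.9, 17.6 and 18.5 FPKM to 50.7, 47.7 and 50.1 FPKM (1.28 ± 0.087), and its mean was 23.2 FPKM at the medium dose and 34.8 FPKM at the high dose. Cyp2c11, the main male-type P450, was at 545, 523 and 512 FPKM against 511, 491 and 524 FPKM and did not pass the threshold (-0.05 ± 0.053, adjusted p = 0.521, limma). Stac3, on the male-type list, fell from 103, 105 and 109 FPKM to 39.7, 39.7 and 37.9 FPKM (-1.41 ± 0.029).

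Among secreted regulators 11 of 24 rose and 10 fell. Nrg4, a ligand of the epidermal growth factor receptor family, had the largest rise, from 1.02, 1.21 and 0.794 FPKM to 5.21, 4.91 and 3.71 FPKM (1.48 ± 0.11). Its mean was 4.82 FPKM at the medium dose, 8.29 FPKM at the high dose and 20.3 FPKM in the normal control. Inhba, a subunit of activin, fell from 6.38, 7.34 and 6.97 FPKM to 3.27, 3.38 and 3.45 FPKM (-0.85 ± 0.068). Selenop, the selenium carrier of plasma, rose from 3530.2, 3339 and 3295 FPKM to 4451, 4491 and 4476 FPKM (0.40 ± 0.022), and Fetub, a plasma protease inhibitor, fell from 2654, 2691 and 2665 FPKM to 2218, 2199.5 and 2224 FPKM (-0.27 ± 0.013).

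Amino acid breakdown and the urea cycle had 19 higher and 6 lower genes of 33 (median 0.17). The urea cycle, which turns ammonia into urea, had 6 higher genes of 7 and none lower. Ass1 went from 553, 547 and 563 FPKM to 731, 735 and 739 FPKM (0.41 ± 0.02), Asl from 180.3, 179 and 180.0 FPKM to 233, 223 and 231 FPKM (0.35 ± 0.018) and Cps1, its entry enzyme, from 559.9, 556 and 547 FPKM to 661, 656 and 668 FPKM (0.26 ± 0.015). Bhmt, which remakes methionine from betaine, had the smallest p of any higher gene. It was at 759.9, 740.5 and 749.9 FPKM in the obese control and at 1067, 1074 and 1074 FPKM at the low dose, a log2 difference of 0.51 ± 0.012 (adjusted p = 1.44e-13, limma). Gpt, alanine aminotransferase, went from 29.5, 30.1 and 31.6 FPKM to 47.6, 46.9 and 44.6 FPKM (0.59 ± 0.037). Kynu, of tryptophan breakdown, was the largest fall, from 98.1, 95.2 and 93 FPKM to 55.7, 51.2 and 53.1 FPKM (-0.83 ± 0.042), and its mean was 35 FPKM at the high dose and 25.5 FPKM in the normal control.

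Enzymes that handle drugs and other foreign compounds were more often higher than lower. Of 29 cytochrome P450 genes and their partners 16 rose and 4 fell (median 0.10), and of 29 conjugation enzymes and carboxylesterases 13 rose and 3 fell (median 0.21; 17 and 1 as TPM). Por, which supplies electrons to all microsomal P450 enzymes, went from 109, 107 and 109 FPKM to 159.8, 159.8 and 159 FPKM (0.56 ± 0.028). Cyp1a2 went from 169, 167 and 167 FPKM to 232, 237 and 238 FPKM (0.49 ± 0.018) and Cyp2e1, the ethanol-oxidising P450, from 759.6, 741 and 738 FPKM to 1006, 1024 and 1003 FPKM (0.44 ± 0.021). All 3 were higher in every low-dose library. All 5 glucuronosyltransferases on the list rose, with Ugt2b17 going from 22.8, 22.7 and 21.1 FPKM to 52, 48.8 and 47.7 FPKM (1.12 ± 0.036). Ces2e, a carboxylesterase, had the largest rise of the lists. It was at 0.48, 0.38 and 0.341 FPKM in the obese control and at 5.89, 6.71 and 7.37 FPKM at the low dose, a log2 difference of 2.45 ± 0.07 (adjusted p = 9.97e-13, limma), and its mean was 11.3 FPKM at the medium dose, 3.25 FPKM at the high dose and 0.165 FPKM in the normal control. P450, glucuronosyltransferase and carboxylesterase genes have close relatives, and no source says how reads shared by near-identical copies were counted.

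The antioxidant list, built around the transcription factor NRF2, was evenly split, with 8 higher and 8 lower of 21 (median 0.06). Of its 13 NRF2 targets 4 rose and 4 fell. Of 6 scavengers of reactive oxygen 3 rose and 3 fell, and of 2 regulators 1 rose and 1 fell. Nqo1, a quinone reductase, went from 16.1, 16.1 and 17.5 FPKM to 21.9, 22.9 and 22.4 FPKM (0.41 ± 0.049), and Gclm, of glutathione synthesis, from 55.1, 57.1 and 54.9 FPKM to 70, 67.7 and 70.7 FPKM (0.31 ± 0.024). Gpx1, a glutathione peroxidase, fell from 1606, 1594 and 1651 FPKM to 1308, 1299 and 1287 FPKM (-0.32 ± 0.017) and Sod1, the cytosolic superoxide dismutase, from 904, 924 and 969.6 FPKM to 767, 803 and 778 FPKM (-0.25 ± 0.027).

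In the circadian clock list, output genes and repressors were higher and activators lower. Of 22 tested members 14 rose and 4 fell (median 0.30). By role, 8 of 9 output genes rose and none fell, 6 of 9 repressors rose and 1 fell, and 3 of 4 activators fell. Arntl (Bmal1), the activator at the core of the clock, was at 6.71, 5.78 and 5.67 FPKM in the obese control and at 1.95, 2.04 and 2.04 FPKM at the low dose, and its mean was 0.785 FPKM at the medium dose, 0.845 FPKM at the high dose, 2.28 FPKM with orlistat and 0.297 FPKM in the normal control. The log2 difference from the obese control was -1.22 ± 0.078 (adjusted p = 8.4e-09, limma). Dbp, an output factor driven by Arntl, ran opposite, at 50.3, 48.4 and 50.9 FPKM against 86.6, 85.8 and 83.8 FPKM (0.76 ± 0.027), with means of 113 FPKM at the medium dose, 99.6 FPKM at the high dose and 152 FPKM in the normal control. Per3, a repressor, went from 2.22, 2.34 and 2.31 FPKM to 4.86, 5.46 and 4.88 FPKM (0.88 ± 0.05), and Upp2, a uridine phosphorylase with a daily rhythm, from 7.25, 6.85 and 6.18 FPKM to 19.2, 18 and 16.8 FPKM (1.29 ± 0.057). The labels give no hour of sampling, so a difference in that hour and an effect of the feeding cannot be told apart. The part of these clock genes in the other results was not tested.

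Immediate early genes, which answer within minutes to growth signals or handling of the tissue, were higher at the low dose, and the means of Egr1, Fos, Jun, Junb and Btg2 were the highest of the 6 groups. Of 21 tested members 14 rose and 3 fell (median 0.39). The summed level of the 26 list members in the table was 399 to 405 FPKM in the obese control, 453 to 468 FPKM at the low dose, 332 to 344 FPKM at the medium dose, 336 to 351 FPKM at the high dose, 334 to 345 FPKM with orlistat and 401 to 404 FPKM in the normal control. Egr1, a zinc finger factor, is shown with its promoter, in which the CArG box, the site of serum response factor, is in capitals.
Egr1, GRCr8 chr18:26736828-26737127, plus strand: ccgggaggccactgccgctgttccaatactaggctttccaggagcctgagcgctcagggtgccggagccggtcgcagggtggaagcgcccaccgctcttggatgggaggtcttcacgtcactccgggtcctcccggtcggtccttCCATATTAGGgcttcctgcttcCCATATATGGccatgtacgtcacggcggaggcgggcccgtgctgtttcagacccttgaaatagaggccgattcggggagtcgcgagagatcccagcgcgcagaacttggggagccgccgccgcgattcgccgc

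The box lay at 105 to 96 and at 83 to 74 bases before the start of Egr1. It was in 3 of 14 list members with a window (21.4%), all 3 among the 10 higher genes with a window. Besides Egr1 these were Klf6 and Zfp36, named for this match. The box was in 1.64% of all RefSeq windows and in 1.23% of the windows of tested genes. Egr1 was at 11.7, 11.5 and 11.4 FPKM in the obese control and at 25.6, 27.9 and 26.5 FPKM at the low dose (1.14 ± 0.032, adjusted p = 6.77e-13, limma). Its mean was 13.1 ± 0.191 FPKM at the medium dose, 11.4 ± 0.321 FPKM at the high dose and 20.2 ± 0.336 FPKM in the normal control (mean ± SD, n = 3), and the low dose was above the medium dose by 0.98 ± 0.032 and above the high dose by 1.16 ± 0.032. Fos went from 3.14, 2.78 and 2.61 FPKM to 6.62, 7.83 and 7.53 FPKM (1.12 ± 0.078), Jun from 20.7, 21 and 22.2 FPKM to 38.5, 37.7 and 36.9 FPKM (0.80 ± 0.033) and Junb from 35.9, 36.9 and 35 FPKM to 55.6, 55.3 and 53.9 FPKM (0.60 ± 0.033). All are subunits of the factor AP-1, and none of their groups overlapped. Btg2, an antiproliferative gene, went from 8.87, 8.23 and 9.31 FPKM to 16.9, 17.1 and 17.9 FPKM (0.90 ± 0.065). Gadd45g, a stress gene, fell from 75.5, 76.5 and 79.9 FPKM to 40.3, 42.9 and 37.3 FPKM (-0.93 ± 0.049). The part of tissue handling in these values was not tested.

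**Figure D4:**
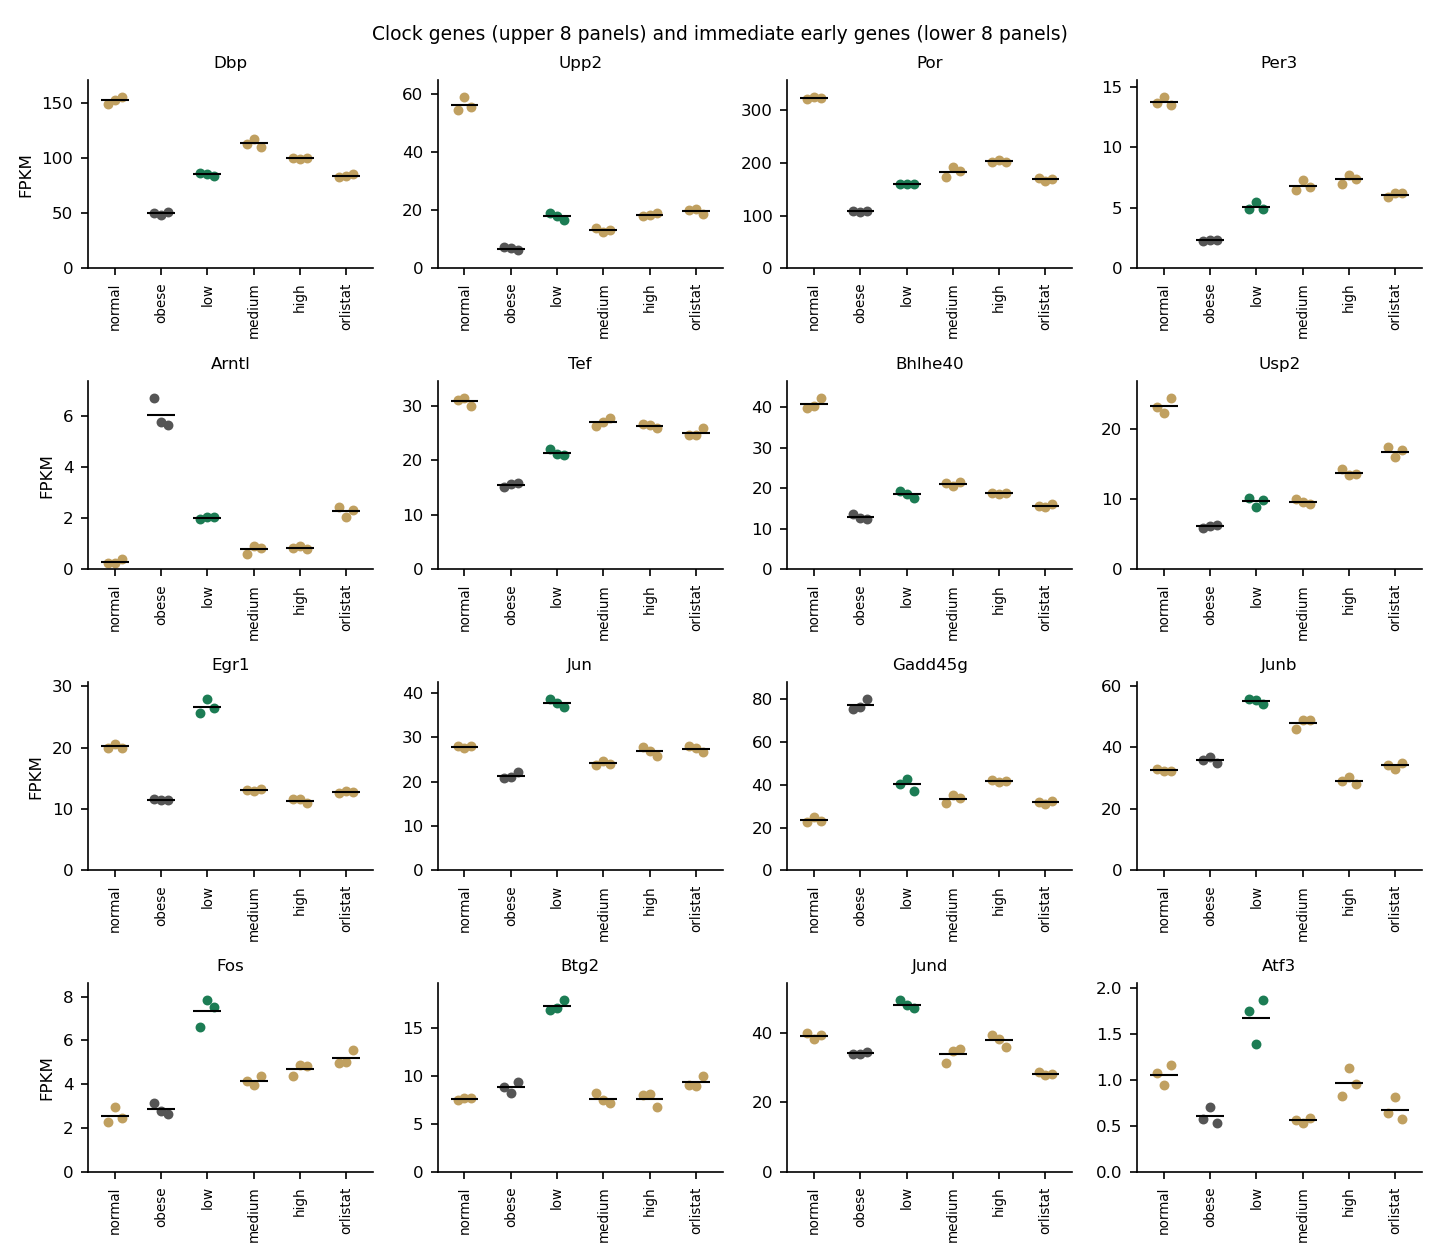
FPKM per library (points) and mean (line) in the 6 groups for 8 circadian clock genes (upper 8 panels) and 8 immediate early genes (lower 8 panels), with the obese control in dark grey and the low dose in green; each axis starts at 0. Arntl is highest in the obese control, and Egr1, Fos, Jun and Btg2 are highest at the low dose.

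Genes of the cell cycle had 3 higher and 3 lower members of 15. Ccnd1 (cyclin D1), which drives entry into the cycle, fell from 11.4, 12 and 12.7 FPKM to 5.63, 5.75 and 6.06 FPKM (-0.94 ± 0.057). Cdkn1a (p21), an inhibitor of the cycle, fell too, from 18.2, 17.4 and 17.3 FPKM to 11.1, 9.57 and 11.5 FPKM (-0.67 ± 0.086). Ccnd1 at the low dose was below the medium dose at 10.1 FPKM and the high dose at 10.4 FPKM (low minus medium -0.70 ± 0.057, low minus high -0.74 ± 0.057).

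Secreted proteins of the acute phase, complement and coagulation were more often higher than lower. Of 18 positive acute phase proteins 13 rose and 1 fell, of 5 negative ones 3 fell and none rose, and of 34 complement and coagulation factors 20 rose and 4 fell (24 and 2 as TPM). Hp (haptoglobin), which binds free haemoglobin, went from 7464, 7596 and 7614 FPKM to 9739.6, 9997 and 9869.6 FPKM (0.38 ± 0.014). Itih4 went from 1371, 1362 and 1382 FPKM to 1748, 1759 and 1776 FPKM (0.36 ± 0.011) and Cp (ceruloplasmin), the copper ferroxidase of plasma, from 587, 574 and 570.2 FPKM to 780.2, 774 and 789 FPKM (0.44 ± 0.021). The low-dose libraries were above the obese control in each. Kng1, the kininogen that yields bradykinin, was at 453, 463 and 468 FPKM in the obese control and at 927, 941 and 954 FPKM at the low dose (1.03 ± 0.024, adjusted p = 1.77e-13, limma). Its mean was 475 FPKM at the medium dose, 511 FPKM at the high dose, 598 FPKM with orlistat and 318 FPKM in the normal control. Ttr (transthyretin), a negative acute phase protein, fell from 15072, 14806 and 15428 FPKM to 11415, 11752 and 11145 FPKM (-0.40 ± 0.025), a fall that quantile normalization did not keep past the threshold. C6, of the membrane attack complex, fell from 80.4, 81.3 and 81.5 FPKM to 55.4, 56.1 and 53.6 FPKM (-0.55 ± 0.023), while C5 rose from 126, 126 and 124 FPKM to 171, 169 and 172 FPKM (0.44 ± 0.017).

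Iron handling had 11 higher and 4 lower genes of 22 (median 0.11). Hamp (hepcidin), the hormone that closes iron export, went from 1053, 1030.5 and 1052 FPKM to 1656, 1745 and 1703 FPKM (0.70 ± 0.027, adjusted p = 2.7e-11, limma). Its mean was 1207 FPKM at the medium dose, 1075 FPKM at the high dose and 1606 FPKM in the normal control. Bmp2, an inducer of hepcidin made by endothelial cells, went from 2.7, 3.53 and 2.94 FPKM to 5.33, 5.16 and 4.9 FPKM (0.60 ± 0.062), and Id3, a target of that signal, from 31.2, 26.2 and 29.3 FPKM to 37.9, 39.6 and 38.2 FPKM (0.41 ± 0.063). Ftl1, the ferritin light chain, fell from 3134, 2988 and 3039 FPKM to 2402, 2334 and 2336 FPKM (-0.37 ± 0.024).

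Interferon response genes had 11 higher and 4 lower members of 28 (median 0.05). Ifit1, an RNA-binding antiviral protein, went from 1.71, 1.5 and 1.89 FPKM to 3.32, 3.34 and 3.82 FPKM (0.74 ± 0.068), and Usp18, which damps interferon signalling, from 3.8, 3.39 and 3.2 FPKM to 5.41, 6.65 and 5.18 FPKM (0.59 ± 0.073). Ifi27 fell from 607, 597 and 604 FPKM to 535, 557 and 543 FPKM (-0.15 ± 0.016). The inflammation list had 7 higher and 3 lower genes of 21, and histocompatibility genes 3 higher and 1 lower of 18 (median 0.04, between -0.01 and 0.08 over the alternatives). Cxcl1, a neutrophil attractant, fell from 6.19, 5.77 and 6.48 FPKM to 3.85, 3.64 and 3.41 FPKM (-0.63 ± 0.10).

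Mitochondrial transcripts were lower. Of 13 genes encoded by the mitochondrial genome 8 fell and none rose (median -0.25; 4 to 12 lower over the alternatives), and of 42 nuclear subunits of oxidative phosphorylation 17 fell and 3 rose (median -0.09; 11 and 4 as TPM). COX1, a cytochrome oxidase subunit, went from 22694, 23301 and 21729 FPKM to 17961, 19279 and 17981 FPKM (-0.29 ± 0.043). ATP6, of the ATP synthase, went from 15740.5, 16684 and 15226 FPKM to 12414, 14535 and 12543 FPKM (-0.27 ± 0.073), and under quantile normalization its difference was 0.03 with the opposite sign and that of COX1 was 0 (adjusted p = 1, limma), neither past the threshold. Uqcrq, a nuclear subunit, fell from 179.7, 179.9 and 186 FPKM to 146, 142 and 142 FPKM (-0.34 ± 0.045), and Uqcrc2, of the same complex, rose from 48.7, 49.1 and 46.5 FPKM to 56.9, 57.8 and 60.7 FPKM (0.28 ± 0.033). The part of the lower mitochondrial read share in the other results was not tested.

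Markers of cells other than hepatocytes moved in both directions, and in bulk liver fewer cells of a type and less RNA per cell cannot be told apart. Of 22 endothelial markers tested 17 were higher and none lower, with a median of 0.50. Stab2, a scavenger receptor of the sinusoid, went from 1.8, 1.63 and 1.67 FPKM to 3.84, 3.82 and 3.68 FPKM (0.82 ± 0.04). Lyve1 went from 10.9, 10.5 and 10.7 FPKM to 18.9, 17.3 and 17.6 FPKM (0.69 ± 0.043) and Kdr, a receptor for vascular endothelial growth factor, from 6.03, 6.19 and 6.65 FPKM to 9.9, 9.8 and 10.2 FPKM (0.59 ± 0.037). Every low-dose library was above every obese control library in these 3. The summed level of the 24 markers in the table was 133 to 134 FPKM in the obese control, 187 to 191 FPKM at the low dose, 188 to 194 FPKM at the medium dose, 221 to 226 FPKM at the high dose, 205 to 206 FPKM with orlistat and 102 to 103 FPKM in the normal control. The low dose overlapped the medium dose and was below the high dose and orlistat. Clec4g and Rspo3, chosen after their values were seen, did not pass the threshold (0.03 ± 0.062 and -0.13 ± 0.069), so the rise was not shared by every marker.

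Of 16 Kupffer cell and macrophage markers 12 were higher and none lower (median 0.25). By role, 10 of 11 markers of resident cells rose (median 0.29). Of 5 markers of recruited macrophages 2 rose, with a median of -0.01. Clec4f, specific to Kupffer cells, went from 58.2, 56.1 and 59.4 FPKM to 79.1, 80.5 and 76.5 FPKM (0.44 ± 0.035). C1qa, a complement subunit that macrophages make, went from 70.9, 69.5 and 75.9 FPKM to 88.9, 97.5 and 98.2 FPKM (0.39 ± 0.043), and Cd5l, a secreted macrophage protein, from 27, 29.6 and 28 FPKM to 32.7, 33.2 and 33.4 FPKM (0.23 ± 0.043). The 22 markers in the table summed to 354 to 365 FPKM in the obese control and 444 to 455 FPKM at the low dose, but to 297 to 307 FPKM at the medium dose and 303 to 309 FPKM at the high dose, below the obese control. Their sum was 369 to 389 FPKM with orlistat, above the obese control, and 216 to 219 FPKM in the normal control. For Clec4f, low minus medium dose was 0.49 ± 0.035 and low minus high dose 0.41 ± 0.035 (adjusted p = 6.16e-08 and 3.68e-07, limma).

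Stellate cell and matrix genes were lower in 21 of 37 and higher in 3 (median -0.18; 17 lower as TPM). Lox, which cross-links collagen, had one of the largest falls of all genes, from 10.3, 9.76 and 10.1 FPKM to 2.06, 2.31 and 1.89 FPKM (-1.84 ± 0.065, adjusted p = 1.01e-11, limma). Its mean was 3.14 FPKM at the medium dose, 2.24 FPKM at the high dose, 3.11 FPKM with orlistat and 2.9 FPKM in the normal control. The mean of the obese control was thus the highest of the 6 groups. Lrat, which stores retinol in stellate cells, went from 5.76, 5.87 and 5.49 FPKM to 3.74, 3.65 and 3.8 FPKM (-0.50 ± 0.049), and Pdgfrb, their growth factor receptor, from 2.96, 3.01 and 3.05 FPKM to 1.79, 2.06 and 1.67 FPKM (-0.50 ± 0.066). Col3a1, a fibrillar collagen, went from 38.5, 38 and 36.6 FPKM to 29.6, 28.8 and 30.1 FPKM (-0.34 ± 0.032). The groups were apart for all 4. The contractile markers Acta2 and Tagln, chosen after their values were seen, did not pass the threshold (-0.05 ± 0.11 and -0.02 ± 0.077), and Col18a1, which hepatocytes also make, was higher (0.34 ± 0.026). The summed level of the 43 members was 785 to 793 FPKM in the obese control and 706 to 708 FPKM at the low dose. It was 675 to 720 FPKM at the medium dose, 735 to 747 FPKM at the high dose and 757 to 778 FPKM with orlistat. In the normal control it was 598 to 599 FPKM.

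Red blood cell genes were lower, with 6 of 9 called and none higher (median -0.47). Hba-a1, a haemoglobin alpha chain, was at 1218, 1001 and 1087 FPKM against 854, 688 and 735 FPKM (-0.54 ± 0.12), and Alas2, of haem synthesis in erythroid cells, at 4.54, 4.51 and 4.77 FPKM against 2.43, 2.47 and 2.2 FPKM (-0.74 ± 0.10). The sums were 1391 to 1674 FPKM in the obese control and 951 to 1157 FPKM at the low dose, without overlap. Haemoglobin alpha copies are nearly identical, so the split of reads between them is uncertain. Lymphocyte and natural killer genes had 2 higher and 1 lower of 10, and their sum was 40 to 46.3 FPKM in the obese control and 51.3 to 55 FPKM at the low dose. Neutrophil genes had 1 higher of 2, with a sum of 11.5 to 12 FPKM against 14 to 15.2 FPKM, and bile duct genes 1 higher of 4, with a sum of 21.7 to 23.3 FPKM against 24 to 25.1 FPKM. The neutrophil list had 0 to 2 higher genes over the alternatives, and 8 neutrophil and 9 bile duct members were below the filter. Exocrine pancreas genes had 1 lower of 2, with a sum of 13.8 to 14.2 FPKM against 10 to 11.4 FPKM. The sums of these 4 lists did not overlap between the groups, the pancreas sum being lower and the others higher at the low dose. The pancreatic genes Pnlip, Prss1, Prss2 and Try10 and the muscle gene Ckm were listed at 0 in all 6 libraries. The part of these cell markers in the pathway results above was not tested.

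**Figure D5:**
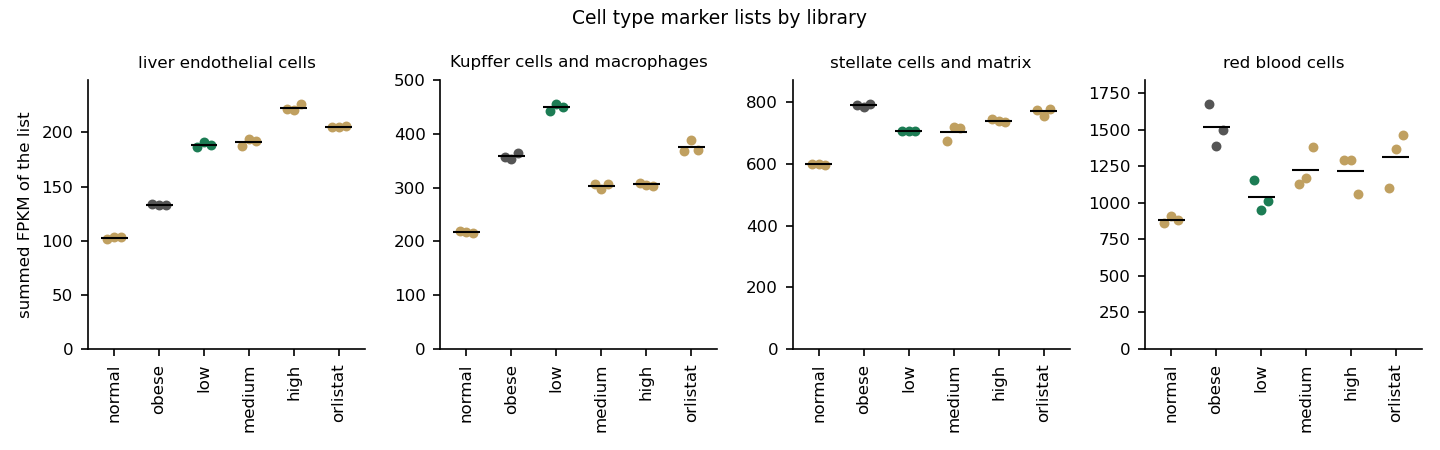
Summed FPKM of the markers of liver endothelial cells, Kupffer cells and macrophages, stellate cells and matrix, and red blood cells in each library (points, with the group mean as a line) of the 6 groups, on axes that start at 0; the obese control is dark grey and the low dose green. At the low dose endothelial and Kupffer sums lie above the obese control and the other sums lie below it.

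Outside these lists, the largest falls among genes with a symbol past the threshold included Akr1c2, an aldo-keto reductase of steroids (chr17:69388335-69404341 as the table gives it, on a rat build that the sources do not name). It went from 101, 105 and 102 FPKM to 19.7, 20.3 and 21.5 FPKM (-2.27 ± 0.066). Paqr9, a membrane protein, went from 73.4, 73.1 and 74.8 FPKM to 30.9, 29.2 and 32 FPKM (-1.24 ± 0.041), and Hao2, a peroxisomal hydroxyacid oxidase, from 245, 239.9 and 237 FPKM to 108, 105 and 106 FPKM (-1.17 ± 0.028). Hdc, which makes histamine, fell from 12.3, 11.7 and 11.3 FPKM to 4.8, 4.72 and 4.64 FPKM (-1.16 ± 0.064). Dab1, an adaptor of reelin signalling, fell from 4.82, 5.22 and 5.13 FPKM to 1.49, 1.44 and 1.66 FPKM (-1.26 ± 0.063), and Slc34a2, a phosphate carrier, from 15.6, 17.5 and 15.7 FPKM to 6.43, 6.44 and 7.43 FPKM (-1.15 ± 0.054). The largest log2 fall among these was that of AY172581.15, a transfer RNA gene of the mitochondrial genome (MT, 3835 to 3903), at 6.22, 6.77 and 3.62 FPKM in the obese control and listed at 0 in each low-dose library, so no fold is given. Short genes such as this one and the spliceosomal RNA RF00026 (4.51, 5.55 and 7.94 FPKM against 0.793, 0 and 1.2 FPKM) are poorly kept by library kits for longer RNA.

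Mir3064, a microRNA gene, was at 74.4, 90.6 and 90.3 FPKM in the obese control and at 32.3, 30.7 and 40.8 FPKM at the low dose (-1.28 ± 0.13, adjusted p = 1.87e-06, limma). The values come from fragments over a gene of 67 bases in a library of longer RNA, so they do not measure the mature microRNA. Its mature 3p arm in RefSeq (GRCr8, chr10:92225520-92225543, minus strand) is shown because the gene is among the largest falls, with the seed, bases 2 to 8, in capitals.
rno-miR-3064-3p: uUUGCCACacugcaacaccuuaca

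Among the largest rises of genes with a symbol, Tspan4, a tetraspanin, rested on scattered libraries, at 7.15, 0.451 and 0.886 FPKM in the obese control and 16.7, 11.3 and 28.1 FPKM at the low dose (2.72 ± 0.84, adjusted p = 0.0208, limma). Its adjusted p was 0.0767 without low-dose library 3, 0.0878 without obese control library 2 and 0.0730 without obese control library 3. The libraries of the next genes did not overlap between groups, which the rule for the largest changes required. Acsm5, a medium-chain acyl-CoA synthetase (chr1:189233141-189272172), went from 18.8, 18.6 and 18.6 FPKM to 40.7, 38.4 and 39.5 FPKM (1.05 ± 0.026). Fmo5, a flavin monooxygenase, went from 36.2, 36.1 and 38.5 FPKM to 79.6, 79.4 and 76.3 FPKM (1.07 ± 0.028), and Gda, guanine deaminase, from 9.8, 11 and 12.1 FPKM to 24.4, 24.7 and 24.9 FPKM (1.10 ± 0.06). Mt2A and Mt1m are metallothioneins, small proteins that hold zinc and copper. Mt2A went from 581, 556 and 584 FPKM to 1166, 1165 and 1184 FPKM (1.03 ± 0.035) and Mt1m from 2.58, 2.27 and 2.14 FPKM to 6.81, 7.19 and 5.83 FPKM (1.19 ± 0.19). Creg1, a secreted glycoprotein, and Serpina3m, a protease inhibitor, were among the smallest p of the higher genes, with differences of 0.69 ± 0.019 and 0.71 ± 0.022, and Adh1, alcohol dehydrogenase, rose from 471, 455 and 449 FPKM to 671, 670.2 and 674 FPKM (0.55 ± 0.017).

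The low dose was then set against the other groups in the same fit. These comparisons share the low-dose libraries with each other and with the comparison to the obese control, so their values are given side by side. Of the 11945 genes, 2751 differed from the medium dose (23.0%), 3903 from the high dose (32.7%), 4390 from orlistat (36.8%) and 5709 from the normal control (47.8%). Against the medium dose 1463 genes were higher and 1288 lower at the low dose, against the high dose 1964 and 1939, against orlistat 2304 and 2086, and against the normal control 2720 and 2989.

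Some genes set the low dose apart from the obese control and from both other doses in the same direction. Serpina7, the thyroxine-binding globulin of plasma (chromosome X), was at 5.27, 4.85 and 4.17 FPKM in the obese control and 11.1, 11 and 11.7 FPKM at the low dose, while the mean was 2.56 ± 0.155 FPKM at the medium dose and 3.92 ± 0.022 FPKM at the high dose. Low minus medium was 1.78 ± 0.081, low minus high 1.31 ± 0.081 and low minus obese 1.09 ± 0.081. Wfdc2, a secreted protease inhibitor, was at 30.5, 28.2 and 29.8 FPKM against 68.4, 64.6 and 64.5 FPKM (1.13 ± 0.062), with means of 33.4 ± 0.405 and 37.8 ± 2.4 FPKM at the medium and high doses. Mt2A averaged 685 ± 36.5 and 695 ± 29 FPKM there, against 1172 ± 10.6 FPKM at the low dose (low minus medium 0.77 ± 0.035, low minus high 0.75 ± 0.035). Egr1, Btg2, Kng1, Mt1m and Igfbp1 were the other 5 highest by this measure. Igfbp1 averaged 56.2 FPKM at the low dose, 36.0 FPKM with orlistat and 50.8 FPKM in the normal control.

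In the opposite direction, Gimd1, of a family of GTP-binding proteins, was at 5.33, 5.38 and 5.25 FPKM in the obese control and 1.76, 2.18 and 1.74 FPKM at the low dose, with means of 4.15 ± 0.0452 and 4.92 ± 0.438 FPKM at the medium and high doses. Its mean was 2.39 ± 0.104 FPKM with orlistat and 9.82 ± 0.29 FPKM in the normal control. Nrep, a neuronal regeneration protein also made in liver, was at 52.6, 51.9 and 57.2 FPKM against 25.5, 22.2 and 26.5 FPKM (-1.10 ± 0.061), with means of 41.2 ± 1.84 and 49 ± 2.99 FPKM. Low minus medium was -0.72 ± 0.061 and low minus high -0.96 ± 0.061. Slc22a8, a carrier of organic anions, was at 109, 107 and 102 FPKM against 74.2, 78.5 and 75.7 FPKM (-0.47 ± 0.03), with means of 119 ± 1.69 and 127 ± 0.524 FPKM. Aox3, an aldehyde oxidase, was at 11, 11.5 and 10.9 FPKM against 8.14, 7.52 and 7.89 FPKM (-0.45 ± 0.057), with means of 14.3 ± 1.34 and 12.8 ± 0.642 FPKM. Scd, Ccnd1, Marveld1 and Rpl10l completed the 8 lowest. Marveld1 went from 13.2, 12.3 and 12.5 FPKM to 6.92, 6.46 and 7.14 FPKM (-0.80 ± 0.045). Rpl10l, a ribosomal protein copy, went from 12.7, 11.7 and 12.6 FPKM to 9.05, 7.63 and 8.12 FPKM (-0.53 ± 0.079). For Rpl10l, low dose minus orlistat was -0.19 ± 0.079 and did not pass the threshold (adjusted p = 0.0753, limma).

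Acsm5 showed how far the doses could differ at a single gene. Its mean level was 18.6 ± 0.142 FPKM in the obese control, 39.5 ± 1.18 FPKM at the low dose, 18.6 ± 0.103 FPKM at the medium dose and 74.8 ± 0.758 FPKM at the high dose (mean ± SD, n = 3). The mean at the medium dose was that of the obese control to 3 digits and the mean at the high dose was the highest, so the levels did not follow the order of the doses. Low minus medium was 1.05 ± 0.026 and low minus high -0.90 ± 0.026 (adjusted p = 4.46e-13 and 1.97e-12, limma). Ces2e, at 11.3 ± 0.569 FPKM at the medium dose and 3.25 ± 0.135 FPKM at the high dose, and Scd, at 272 ± 3.16 and 170.4 ± 3.98 FPKM, did not follow it either.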

How the data were processed

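RNA from liver that had been frozen in liquid nitrogen was made into libraries from 1 µg each and sequenced, per the labels' protocols. The authors deposited 1 table of FPKM values per gene for the 18 libraries. The submitters' processing notes name CASAVA 1.7, Bowtie 0.12.2 and the genome build mm8, a mouse build, whereas the gene identifiers in the table are rat, so the rat build and annotation behind the values are not known. From the smallest steps of each column and the gene lengths, whole reads were recovered for 100% of values (tolerance 0.001). The size by which a library was scaled was 0.966 to 1.05 times its recovered reads. This ratio averaged 0.974 in the obese control, 0.977 at the low dose, 1.03 at the high dose and 1.04 with orlistat. It averaged 1.01 at the medium dose and in the normal control. The FPKM values were thus not scaled by the recovered reads alone.

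The main test was limma 3.58.1 (R 4.3.3) with a mean-variance trend on log2(FPKM + 1), which understates the change of low genes. All 6 groups were fitted together (12 residual degrees of freedom) and genes at 1 FPKM or more in at least 3 libraries were kept. Tests were two-sided, with Benjamini-Hochberg adjustment over all 11945 genes at 0.05. An exact permutation of 3 against 3 libraries cannot go below p = 0.1 and was not used. Tables and figures were made with Python 3.11.15, pandas 2.3.3 and matplotlib 3.10.9, and the fit was tested on simulated data. Promoter windows and the microRNA come from RefSeq (GRCr8).

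The genes, lists and comparisons were chosen with earlier results of these data known. Named genes were those with the 15 largest changes in each direction (called, groups apart, at least 5 FPKM in the higher group), the 10 smallest p in each direction, the 10 most abundant called genes changed by at least 0.5 on the log2 scale, up to 8 members of each list by p, and the 8 in each direction that set the low dose apart from the obese control and both other doses. Genes without a symbol or with a placeholder name, such as LOC or RGD, were left out of all these rankings except that of list members. Other genes named in the text are said to be chosen after their values were seen. Alternatives were other scalings, pseudocounts, filters, fits and left-out libraries. Some genes of the lists are counted but not reported by name.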

Additional observations from a re-analysis of the deposited data

How the results depend on the processing

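The counts of higher and lower genes and of genes that differed from each other group kept within 1.5 times their values under all 14 alternatives for the obese control and under those run for the other groups. Against the obese control, 1871 to 1988 genes were higher and 1497 to 1547 lower when 1 library was left out, against 2183 and 1764. voom (limma) on the recovered reads called 2431 and 1671, and no gene called by both had opposite signs. Of 301 named genes 275 were called and 251 of these under every alternative. The named genes were mostly chosen by p or size of change in these same libraries, which favours their staying called. Under quantile normalization, which by construction gives the top-ranked genes of every library the same values, ATP6 (0.0333) and Ambp (0.029) changed sign and were not called. Libraries with the same replicate number did not deviate together (correlations -0.0381, -0.0235 and -0.0421 between low dose and obese control), and the fit with the replicate block called 2139 higher and 1729 lower genes. Without the filter 21747 genes were tested and 2121 and 1775 called. Genes with few reads, such as short RNA genes, and those with scattered libraries, such as Tspan4, are limited by the 3 libraries per group.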
